A study of Mus musculus with 14 samples.

Results

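The 8 genes described here carry the adrenergic, angiotensin and endothelin signals that act on the heart. They were chosen by name from the 51912 genes of the count tables. They are the adrenoceptor genes Adrb1, Adra1a and Adra1b, the angiotensin receptor gene Agtr1a, the gene of the angiotensin-converting enzyme Ace, the endothelin receptor genes Ednra and Ednrb, and the endothelin gene Edn1. All 8 had counts in every library, from 91 reads (Edn1) to 2322 reads (Ace), and all 8 passed the filter on low counts.

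Whole hearts of C57BL/6J mice were profiled by sequencing of poly(A) RNA in 14 libraries. The labels give 4 libraries of Clk3 KO hearts after TAC at 10 weeks of age, and 4 of Clk3 KO hearts after sham surgery, 2 at 11 weeks and 2 at 10 weeks. They give 2 libraries of wild-type (WT) hearts after TAC at 10 weeks, and 4 of wild-type hearts after sham surgery, 2 at 11 weeks and 2 at 10 weeks. TAC is the usual abbreviation of transverse aortic constriction, an operation that narrows the aorta and loads the left ventricle, and Clk3 encodes a kinase of splicing factors. The labels give no sex, no time between surgery and collection, no time of day, no description of the knockout allele, and do not state that separate animals gave the libraries. The p-values therefore cover no more than the spread among these samples, part of which may be technical. The study's title names the part of Clk3 in the growth of the overloaded heart, and the comparisons are TAC against sham in each genotype and knockout against wild type in each surgery.

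As background, noradrenaline and adrenaline raise the rate and force of the heartbeat mainly through the beta-1 receptor, which couples to Gs, adenylyl cyclase and protein kinase A. The alpha-1A and alpha-1B receptors, the angiotensin type 1 receptor and both endothelin receptors couple to Gq, phospholipase C and protein kinase C, the route long tied to the growth of heart muscle cells. Ace makes angiotensin II from angiotensin I on the surface of endothelial cells, and Edn1 encodes the precursor of endothelin-1, which those cells release.

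Of the 8 members, 5 passed the test after TAC in wild-type hearts. The test throughout is edgeR's quasi-likelihood test with Benjamini-Hochberg adjustment over 15651 genes and a threshold of 0.05. Adrb1, Adra1a and Adra1b fell, and Ace and Ednrb rose. In knockout hearts 2 members passed, Adra1b, which fell, and Ednrb, which rose. Over all genes tested, 13.0% passed after TAC in the knockout and 12.2% in wild type. No member passed between knockout and wild type in sham hearts, where 0.888% of all genes did, and Adra1a alone passed between the genotypes after TAC, where 1.48% did. None passed the test of the difference between the TAC effects of both genotypes (interaction), which 0.0192% of all genes passed. The wild-type calls rest on 2 TAC libraries, and without the library labelled wild-type TAC 1 no member passed in wild type.

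The bases just upstream of a RefSeq start of transcription are shown for the members that passed after TAC in wild type and have an entry in the RefSeq promoter table. These are the 200 bases before the RefSeq start, on the gene's strand, in GRCm38.p6. Capitals mark matches, on either strand, to the motifs of the TATA box, TATAAA, of the GC box, GGGCGG, of the E-box, CACGTG, and of the AP-1 site, TGANTCA.
Adrb1, chr19:56721917-56722116, plus strand: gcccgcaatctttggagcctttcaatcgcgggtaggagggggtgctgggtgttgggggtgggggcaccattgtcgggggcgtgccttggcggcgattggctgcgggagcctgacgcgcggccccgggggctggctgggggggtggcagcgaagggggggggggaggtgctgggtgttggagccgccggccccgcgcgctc
Adra1b, chr11:43901238-43901437, minus strand: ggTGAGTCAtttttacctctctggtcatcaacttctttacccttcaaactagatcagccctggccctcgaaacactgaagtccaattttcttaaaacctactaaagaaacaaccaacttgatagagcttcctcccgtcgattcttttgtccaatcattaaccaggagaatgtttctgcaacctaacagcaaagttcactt
Ace, chr11:105967748-105967947, plus strand: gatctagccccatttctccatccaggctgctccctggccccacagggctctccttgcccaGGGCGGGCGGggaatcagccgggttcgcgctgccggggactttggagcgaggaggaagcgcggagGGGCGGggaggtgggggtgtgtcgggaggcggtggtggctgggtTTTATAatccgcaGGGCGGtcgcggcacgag
Ednrb, chr14:103843702-103843901, minus strand: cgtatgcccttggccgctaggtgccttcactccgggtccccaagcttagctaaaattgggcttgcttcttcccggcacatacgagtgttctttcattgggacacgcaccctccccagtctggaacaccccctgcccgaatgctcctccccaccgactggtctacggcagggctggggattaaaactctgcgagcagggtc

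The Ace window held 3 GC boxes, counted without overlap, and 1 TATA box on the minus strand. The Adra1b window held 1 AP-1 match and had 41% G and C bases, against 69.5% in the Ace window. The second RefSeq window of Adra1b, at chr11:43836490-43836689, had 74% G and C bases, 1 GC box and no AP-1 match. The Adrb1 and Ednrb windows held none of the 4 motifs. Among 32851 RefSeq windows of the same length, the TATA box letters were held by 9.96%, those of the GC box by 31.1%, those of the E-box by 5.26% and those of the AP-1 site by 5.48%. A match describes these letters only. Ace and Adra1b each have a second RefSeq start inside the gene, and gene counts do not tell the transcripts of both starts apart. The Ednrb window also lies inside the gene as GENCODE M21 gives it, outside its exons, and is not upstream of the gene's annotated start. Adra1a passed but has no entry in the promoter table, so it is named without a sequence. Agtr1a, Ednra and Edn1 did not pass after TAC in wild type, and no sequence is printed for them.

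The genotype label and the level of 1 pseudogene disagreed in 1 library. Clk3, the targeted gene, was still counted in the knockout, at 50.8 to 64.9 CPM (counts put on a common library size with TMM factors) in knockout TAC and 62.8 to 67.4 CPM in knockout sham, against 54.2 and 92.3 CPM in wild-type TAC and 73.2 to 96.0 CPM in wild-type sham. The pseudogene Gm8730, whose reads can be shared with near-identical copies, had 57.4 to 67.1 CPM in the 8 libraries of knockout hearts, against 1.26 to 1.63 CPM in 5 of the 6 wild-type libraries. It was not among the genes named by rule, and the labels do not tie it to the knockout. In these same data it passed between the genotypes in sham hearts (adjusted p 0.00517). The library labelled wild-type TAC 1 had 66.8 CPM of Gm8730 and 54.2 CPM of Clk3, both within the knockout ranges, so its label is in doubt. Clk3 itself did not pass between knockout and wild type. Its log2 difference was -0.37 ± 0.13 in sham hearts (adjusted p 0.158) and -0.34 ± 0.16 after TAC (adjusted p 0.35). Some other genes were closer to wild-type TAC 2 than to knockout TAC in this library. Adcy7 was at 73.4 CPM in this library and 65.6 CPM in wild-type TAC 2, against 27.3 to 38.7 CPM in knockout TAC. Col1a1 was at 414 and 395 CPM there, against 158 to 216 CPM in knockout TAC. These 2 genes were chosen after their values were seen, from a wild-type TAC group that includes this library. In sham hearts both overlapped between genotypes, Adcy7 at 18.3 to 23.0 CPM in knockout and 19.7 to 29.4 CPM in wild type. They therefore cannot decide its label. Each library held between 11385818 and 20369637 counts in genes. Reads in no annotated feature made up 12.3% to 14.3% in knockout TAC and 17.1% to 19.0% in knockout sham, and 10.7% to 14.9% in wild-type TAC and 14.3% to 17.6% in wild-type sham. A score of 8 clock genes, high when Arntl, Npas2 and Clock are high and Dbp, Nr1d1, Nr1d2, Per3 and Ciart are low, was 1.22 and 1.78 in wild-type TAC and -2.11 to -1.24 in wild-type sham. These groups did not overlap. It was 1.80 to 2.33 in 3 knockout TAC libraries and -0.48 in knockout TAC 3, against -1.44 to -1.26 in 3 knockout sham libraries and 1.86 in knockout sham 4. The clock score thus moves with TAC, and its part in the results cannot be told apart from TAC in wild type.

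Adrb1 encodes the beta-1 adrenoceptor, the main beta receptor of heart muscle cells (ENSMUSG00000035283.4, GRCm38 chr19:56722199-56733113, plus strand). It was at 18.0, 20.1, 25.8 and 20.5 CPM in knockout TAC hearts and at 23.2, 25.7, 28.3 and 24.2 CPM in knockout sham hearts. Knockout TAC 3 lay among the sham libraries and the other 3 below them. In wild type it was at 19.9 and 21.04 CPM after TAC, against 24.2, 28.0, 30.3 and 27.7 CPM after sham surgery, and the groups did not overlap. The log2 fold change was -0.26 ± 0.11 (SE) in the knockout, with an adjusted p of 0.125, and -0.43 ± 0.13 in wild type, a fall with an adjusted p of 0.0465. The wild-type call lies close to the threshold. It was lost without either wild-type TAC library, at -0.39 without the library labelled wild-type TAC 1 (adjusted p 0.286) and -0.47 without wild-type TAC 2 (adjusted p 0.0965). It was also lost without wild-type sham 2, 3 or 4, without knockout sham 1 or 2, and without knockout TAC 2 or 4, with adjusted p from 0.0168 to 0.286 over the 14 libraries left out in turn. In the knockout, the adjusted p was 0.0250 without knockout TAC 3, the library whose clock score was apart.

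The 2 alpha-1 adrenoceptor members were lowest in the wild-type TAC hearts. Adra1a encodes the alpha-1A receptor (ENSMUSG00000045875.12, chr14:66635251-66771168, plus strand). It was at 25.0, 28.9, 24.3 and 24.3 CPM in knockout TAC hearts and at 28.8, 27.0, 33.3 and 32.0 CPM in knockout sham hearts. Those groups overlapped through knockout TAC 2. Wild-type hearts had 12.3 and 18.4 CPM after TAC, against 26.3, 36.4, 24.1 and 28.4 CPM after sham surgery. Both wild-type TAC libraries lay below all 12 others. The fall in wild type was -0.91 ± 0.18 on the log2 scale, a 1.88-fold lower level, with an adjusted p of 0.00308, and -0.65 with an adjusted p of 0.099 without the library labelled wild-type TAC 1. In the knockout the log2 fold change was -0.24 ± 0.13, with an adjusted p of 0.249.

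After TAC, Adra1a was higher in knockout than in wild-type hearts by 0.74 ± 0.18 on the log2 scale, with an adjusted p of 0.0489. The groups did not overlap. This call was lost in 17 of the 22 alternatives, including 12 of the 14 libraries left out in turn. It was kept among those 14 only without wild-type sham 2 or wild-type TAC 2, and the value without the library labelled wild-type TAC 1 was 0.48, with an adjusted p of 0.345. The direction was kept under all 22 alternatives. The TAC effect itself differed between genotypes by 0.67 ± 0.22, the largest difference among the members, with an unadjusted p of 0.00787 and an adjusted p of 0.571. That difference was 0.41 without the library labelled wild-type TAC 1 (adjusted p 0.894) and 0.99 without wild-type TAC 2 (adjusted p 0.118). In sham hearts the difference between genotypes was 0.07 ± 0.13.

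Adra1b encodes the alpha-1B receptor (ENSMUSG00000050541.14, chr11:43774606-43901210, minus strand). It was at 21.4, 20.9, 20.6 and 20.4 CPM in knockout TAC hearts and at 30.9, 39.3, 24.2 and 27.9 CPM in knockout sham hearts. The 4 TAC libraries lay between 20.4 and 21.4 CPM, below every sham library. The knockout sham libraries varied more. Wild-type hearts had 14.3 and 19.7 CPM after TAC, against 30.7, 34.8, 36.8 and 28.6 CPM after sham surgery, again with no overlap. Adra1b fell by 0.55 ± 0.14 on the log2 scale in the knockout (adjusted p 0.0168) and by 0.95 ± 0.17 in wild type (adjusted p 0.00213). The difference between these effects was 0.39 ± 0.22, with an adjusted p of 0.814, and it was 0.18 without the library labelled wild-type TAC 1 and 0.64 without wild-type TAC 2 (adjusted p 0.965 and 0.321). Without the library labelled wild-type TAC 1 the wild-type value was -0.73 with an adjusted p of 0.0735, and without knockout sham 2 the knockout value was -0.41 with an adjusted p of 0.0623.

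**Figure D1:**
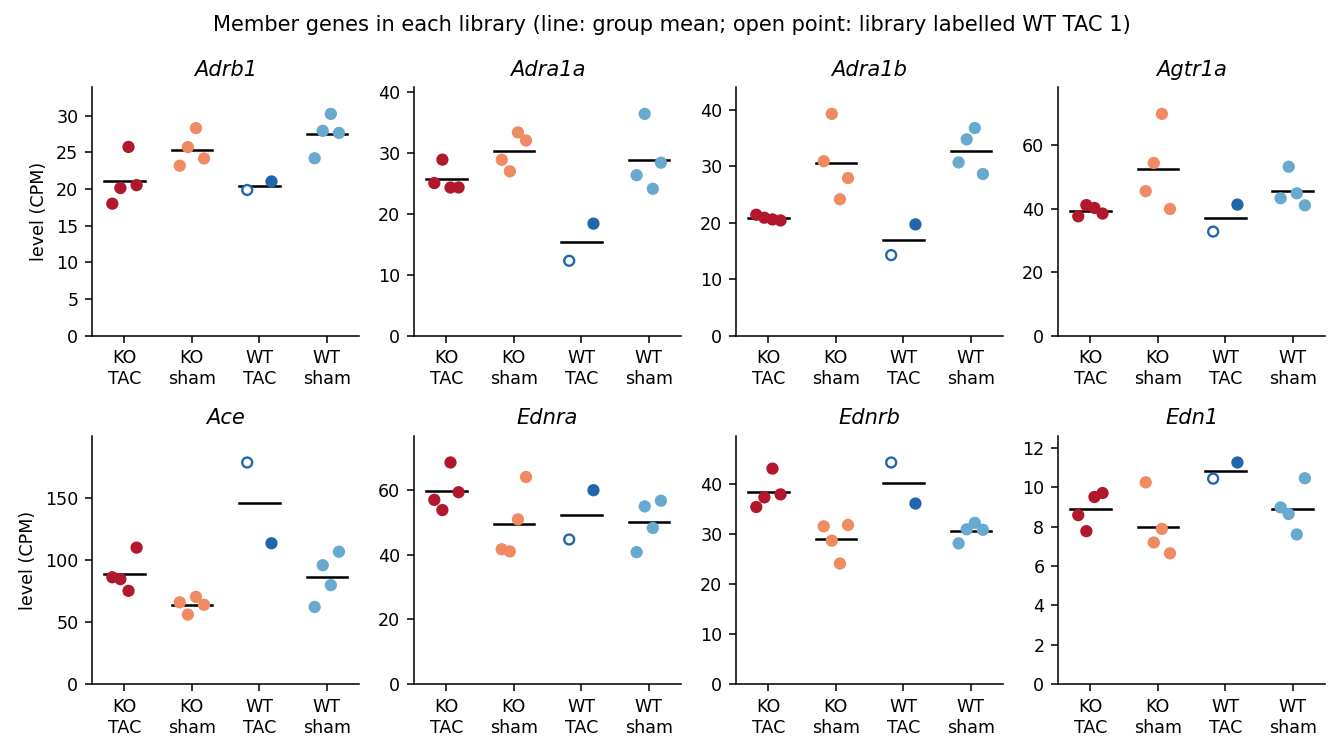
Level of each of the 8 member genes in CPM (vertical axis, from 0) in every library, by group; points are libraries, lines group means, and the open point is the library labelled wild-type TAC 1. Adra1a was lowest in both wild-type TAC libraries, at 12.3 and 18.4 CPM, and Ace was highest there, at 178 and 113 CPM.

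Agtr1a encodes the type 1a angiotensin receptor, the main angiotensin II receptor of rodents (ENSMUSG00000049115.15, chr13:30336441-30382867, plus strand). It was at 37.6, 41.1, 40.2 and 38.4 CPM in knockout TAC hearts and at 45.5, 54.4, 69.8 and 39.9 CPM in knockout sham hearts. Knockout sham 3 stood above the other 3, and knockout sham 4 lay within the TAC range. In wild type it was at 32.8 and 41.3 CPM after TAC, against 43.3, 53.2, 44.8 and 41.0 CPM after sham surgery, and the groups overlapped. Neither TAC comparison passed, with log2 fold changes of -0.41 ± 0.14 in the knockout (adjusted p 0.0635) and -0.30 ± 0.17 in wild type (adjusted p 0.296). The knockout value was -0.24 without knockout sham 3 (adjusted p 0.204) and -0.52 without knockout sham 4 (adjusted p 0.0176). The wild-type value was -0.14 without the library labelled wild-type TAC 1, with an adjusted p of 0.815. Agtr1a has a close relative, Agtr1b, which had too few counts to be tested, and reads shared between both genes could be assigned to either.

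Ace was the member with the highest count (ENSMUSG00000020681.14, chr11:105967945-105989964, plus strand). It was at 86.0, 84.5, 75.1 and 109.8 CPM in knockout TAC hearts and at 65.9, 56.0, 70.2 and 63.9 CPM in knockout sham hearts. All 4 knockout TAC libraries lay above all 4 knockout sham libraries. Wild-type hearts had 178 and 113 CPM after TAC, against 62.1, 95.7, 79.7 and 107 CPM after sham surgery. These groups did not overlap either, but wild-type TAC 2 was close to wild-type sham 4. Ace rose 1.69-fold in wild type, by 0.76 ± 0.19 on the log2 scale, with an adjusted p of 0.0184, and the value was 0.39 with an adjusted p of 0.411 without the library labelled wild-type TAC 1. In the knockout the log2 fold change was 0.47 ± 0.17, with an adjusted p of 0.0712, and it passed without wild-type sham 1 or either wild-type TAC library (adjusted p 0.0417 to 0.0428), libraries that enter that contrast only through the shared spread and scaling.

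Ace was lower in knockout than in wild-type hearts in both surgeries without passing the test. After TAC the log2 difference was -0.71 ± 0.20 with no overlap between the groups and an adjusted p of 0.0833, and in sham hearts it was -0.43 ± 0.17 with overlap and an adjusted p of 0.19. Leaving out wild-type TAC 2 or knockout TAC 4 brought the value after TAC past the threshold, at -1.01 (adjusted p 0.0238) and -0.84 (adjusted p 0.0476). Without the library labelled wild-type TAC 1 it was -0.35, with an adjusted p of 0.546. In exons, Ace overlaps the antisense gene Gm11651, and its counts are uncertain to that extent, since no source used here states whether the counting used the strand. The same holds for Edn1, which overlaps Gm47118, and Ednra, which overlaps 4933431K23Rik. The deposited column of ambiguous reads held 0 for these 3 genes over all libraries, and 132 reads, or 1.37%, for Agtr1a, which has the gene Gm48161 in an intron on its own strand.

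Ednrb, the gene of the type B endothelin receptor of endothelial and some smooth muscle cells, rose in both genotypes (ENSMUSG00000022122.14, chr14:103814625-103844402, minus strand). It was at 35.5, 37.4, 43.1 and 38.0 CPM in knockout TAC hearts and at 31.6, 28.7, 24.2 and 31.9 CPM in knockout sham hearts. Wild-type hearts had 44.4 and 36.2 CPM after TAC, against 28.2, 31.0, 32.3 and 30.9 CPM after sham surgery. In each genotype every TAC library lay above every sham library. The log2 fold change was 0.41 ± 0.10 in the knockout (adjusted p 0.0162) and 0.39 ± 0.12 in wild type (adjusted p 0.04). The difference between them was 0.01 ± 0.16, with an adjusted p of 0.997, so the effects differed by less than their errors, and it was 0.17 without the library labelled wild-type TAC 1 (adjusted p 0.954). Both calls depended on single libraries. The knockout call was lost without knockout sham 2 (0.40, adjusted p 0.0516). The wild-type call was lost without any of the 4 wild-type sham libraries, without knockout sham 2, without the library labelled wild-type TAC 1 (0.24, adjusted p 0.452) and without knockout TAC 2 or 4. On coding reads alone neither passed, with log2 fold changes of 0.25 in the knockout and 0.28 in wild type (adjusted p 0.324 and 0.382). Untranslated parts held 68.1% of the Ednrb counts over all libraries.

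Ednra encodes the type A endothelin receptor of smooth muscle and heart muscle cells (ENSMUSG00000031616.7, chr8:77663031-77724464, minus strand). It was at 56.9, 53.7, 68.4 and 59.2 CPM in knockout TAC hearts and at 41.6, 41.0, 50.9 and 63.9 CPM in knockout sham hearts. Knockout sham 4, whose clock score was that of most TAC libraries, lay among the TAC libraries and the other 3 below them. Wild-type hearts had 44.7 and 59.9 CPM after TAC, against 40.8, 54.9, 48.2 and 56.6 CPM after sham surgery, with overlap. Neither log2 fold change passed, at 0.27 ± 0.14 in the knockout (adjusted p 0.224) and 0.06 ± 0.18 in wild type (adjusted p 0.875). The wild-type value was 0.25 without the library labelled wild-type TAC 1, with an adjusted p of 0.624. Without knockout sham 4 the knockout value was 0.42, with an adjusted p of 0.0503.

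Edn1 had the lowest counts of the 8 members (ENSMUSG00000021367.8, chr13:42301476-42307990, plus strand). It was at 8.59, 7.77, 9.51 and 9.71 CPM in knockout TAC hearts and at 10.3, 7.20, 7.89 and 6.65 CPM in knockout sham hearts. Wild-type hearts had 10.4 and 11.3 CPM after TAC, against 8.98, 8.65, 7.61 and 10.5 CPM after sham surgery. The TAC and sham groups overlapped in both genotypes. The log2 fold changes were 0.15 ± 0.14 in the knockout (adjusted p 0.501) and 0.28 ± 0.17 in wild type (adjusted p 0.312), where it was 0.34 without the library labelled wild-type TAC 1 (adjusted p 0.493). After TAC the 4 knockout libraries lay below both wild-type libraries, with a log2 difference of -0.28 ± 0.17 and an adjusted p of 0.476, and it was -0.34 without the library labelled wild-type TAC 1 (adjusted p 0.556). The share of Edn1 counts in untranslated parts was 54.8% to 61.9% in knockout TAC and 49.5% to 53.6% in knockout sham, and 52.2% to 55.3% in wild-type TAC and 53.5% to 61.3% in wild-type sham. It was higher after TAC without overlap in the knockout, and lower on average with overlap in wild type, as a description with no test.

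**Figure D2:**
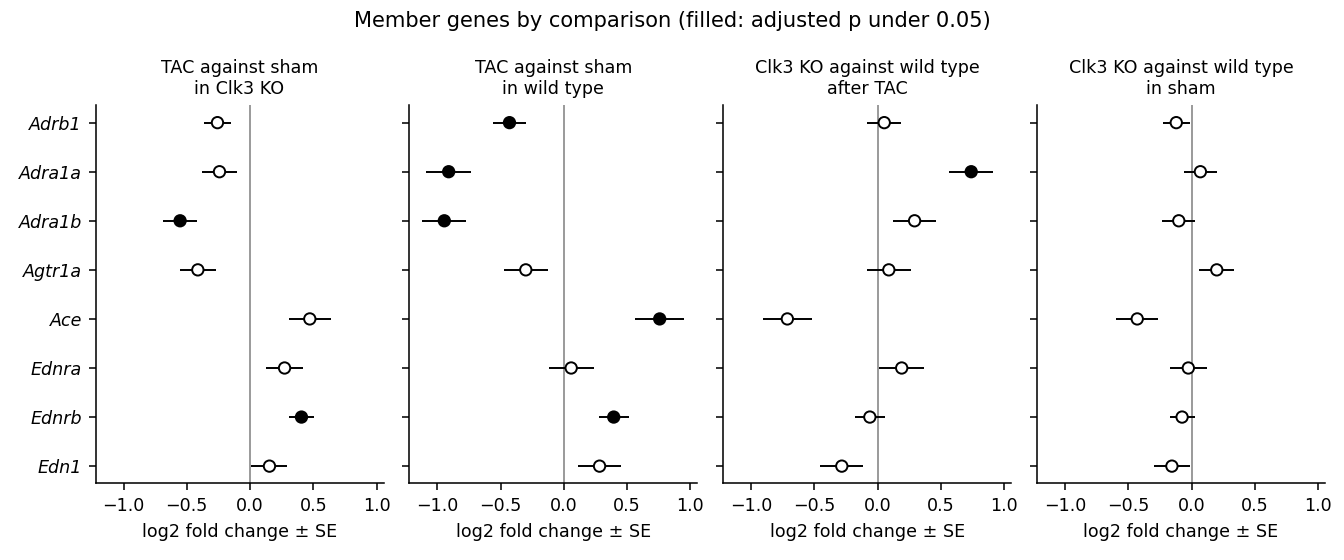
Log2 fold change (horizontal axis) of each member gene with its standard error in 4 comparisons, TAC against sham in knockout and in wild type, and knockout against wild type after TAC and in sham hearts; filled points had an adjusted p under 0.05. In the knockout 2 members passed after TAC and in wild type 5, and Adra1a alone passed between genotypes, after TAC.

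Read against all genes by direction, 1 of the 8 members rose and 1 fell in the knockout, where 6.73% of all genes rose and 6.26% fell. In wild type 2 rose and 3 fell, where 6.91% of all genes rose and 5.3% fell. The median log2 fold change of the 8 members was -0.04 in the knockout and -0.12 in wild type, beside medians of -0.0053 and -0.0023 over all genes tested. At an unadjusted p under 0.05, 5 members passed in each TAC comparison, 2 between genotypes after TAC, 1 between genotypes in sham hearts and 1 in the interaction. DESeq2 called 4 members in the knockout, the additional ones being Agtr1a (adjusted p 0.0422) and Ace (adjusted p 0.0378), and 5 in wild type. The share of all genes that DESeq2 called after TAC is not given here, so these counts have no background beside them. With the clock score in the model no member passed after TAC in either genotype, and 246 genes in the knockout and 340 in wild type still did, against 2033 and 1912 without it. With it, the log2 fold changes of Adra1a and Adra1b in wild type were -0.94 and -0.81 (adjusted p 0.0588 and 0.096), that of Adrb1 was -0.22 (adjusted p 0.614) and that of Ace was 0.58 (adjusted p 0.386). Ednrb was at 0.40 in the knockout and 0.38 in wild type with it (adjusted p 0.111 and 0.328), close to its values without it, and Adra1b at -0.46 in the knockout (adjusted p 0.174). With 10-week libraries alone, Adra1a and Adra1b passed in wild type and no member in the knockout, where 2 sham libraries are left, knockout sham 4 among them.

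**Figure D3:**
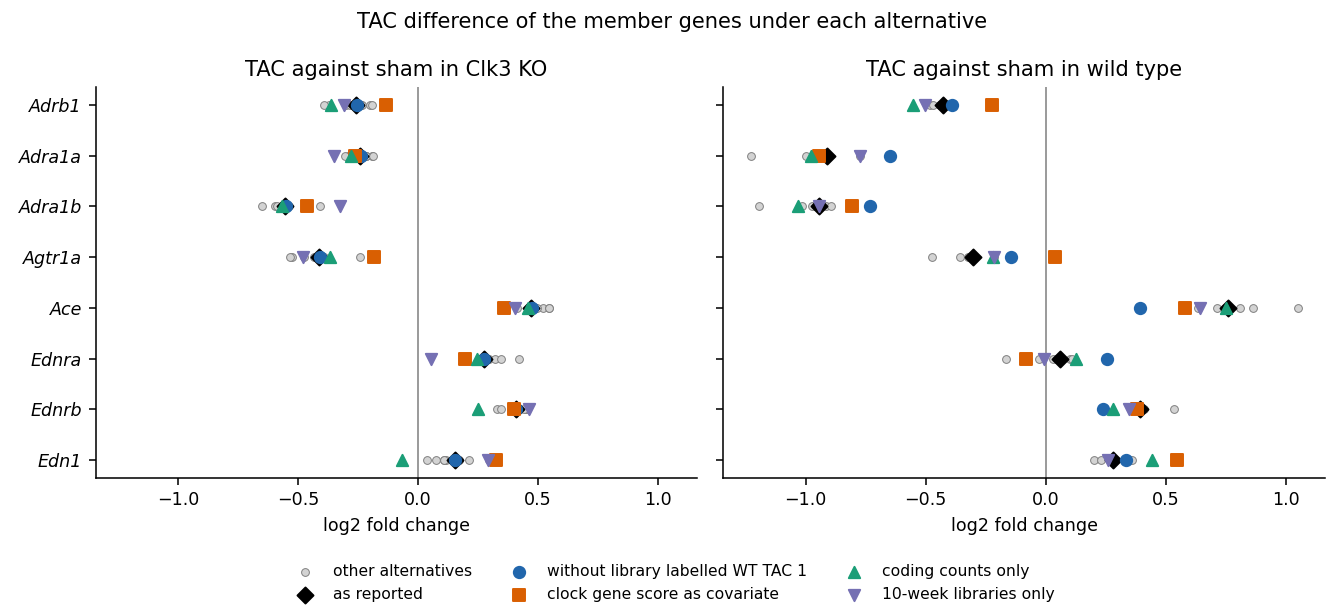
Log2 fold change after TAC (horizontal axis) of each member gene in the knockout and in wild type, as reported (diamonds) and under each alternative (other points). In wild type, leaving out the library labelled wild-type TAC 1 moved Ace to 0.39, Adra1a to -0.65, Adra1b to -0.73 and Ednrb to 0.24. Adrb1, Adra1a, Adra1b, Ace and Ednrb kept their sign under all 22 alternatives in both genotypes.

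Per kilobase of exon, the members were within a few-fold of one another. In wild-type sham hearts the mean level in CPM per kilobase was 16.4 ± 1.91 for Agtr1a, 16.3 ± 3.66 for Ace, 9.67 ± 1.10 for Adra1b, 9.15 ± 1.32 for Ednra, 8.14 ± 0.74 for Adrb1, 7.17 ± 0.40 for Ednrb, 4.17 ± 0.55 for Edn1 and 3.30 ± 0.61 for Adra1a (SD, n = 4). Only 2 steps in this order had no overlap between the libraries of neighbours, from Ace to Adra1b and from Ednrb to Edn1. On this scale Adra1a was at 0.477 ± 0.039 of Adra1b in knockout TAC hearts and 0.402 ± 0.115 in knockout sham hearts, and at 0.333 and 0.361 in wild-type TAC hearts and 0.344 ± 0.067 in wild-type sham hearts. The ratio of Ednra to Ednrb was 1.21 ± 0.06 in knockout TAC and 1.34 ± 0.31 in knockout sham, and 0.784 and 1.29 in wild-type TAC and 1.27 ± 0.15 in wild-type sham. Neither receptor pair had ratios that separated TAC from sham libraries in either genotype.

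Among 89 other genes of these pathways, 79 were tested, and they included larger TAC differences than the members. In the knockout 5 rose and 7 fell, and in wild type 8 rose and 9 fell. Of these 17 wild-type calls, 6 were kept without the library labelled wild-type TAC 1. Between genotypes 2 were higher and 1 lower in knockout sham hearts, and 1 was lower in knockout TAC hearts. Over all genes tested, 13.0% passed after TAC in the knockout and 12.2% in wild type. Between genotypes, 0.888% of all genes passed in sham hearts and 1.48% after TAC. The median log2 fold changes of the 79 genes after TAC were 0.06 in the knockout and -0.05 in wild type. None of the 4 tested genes among the 6 other adrenoceptor genes passed. Adra1d, the alpha-1D receptor gene, was at 2.77 to 4.43 CPM in knockout TAC and 2.53 to 3.99 CPM in knockout sham hearts, and at 3.63 and 4.30 CPM in wild-type TAC and 3.90 to 6.46 CPM in wild-type sham hearts. Its smallest adjusted p was 0.0964, between genotypes in sham hearts, at a log2 difference of -0.75 ± 0.21.

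Edn3, the gene of endothelin-3, which binds Ednrb with higher affinity than Ednra, rose in both genotypes. It was at 15.3, 20.3, 17.3 and 10.4 CPM in knockout TAC hearts and at 1.79, 2.45, 7.61 and 4.02 CPM in knockout sham hearts. Wild-type hearts had 27.1 and 15.3 CPM after TAC, against 4.29, 3.69, 3.34 and 4.10 CPM after sham surgery. No sham library reached any TAC library of its genotype. The log2 fold change was 1.99 ± 0.33 in the knockout (adjusted p 0.00238) and 2.46 ± 0.37 in wild type (adjusted p 0.000513). Both calls were kept with each of the 14 libraries left out in turn and with the clock score in the model, where the adjusted p was 0.0332 in the knockout and 0.0357 in wild type. With 10-week libraries alone the knockout call was lost, at 1.44 with an adjusted p of 0.0864. The wild-type value was 1.99 without the library labelled wild-type TAC 1, with an adjusted p of 0.0238. The rise was thus called with either wild-type TAC library alone. Per kilobase, Edn3 was at 0.947 ± 0.327 of Edn1 in knockout TAC and 0.271 ± 0.179 in knockout sham hearts, and at 1.35 and 0.705 in wild-type TAC and 0.226 ± 0.019 in wild-type sham hearts. Among the other 3 endothelin genes tested, Ece1, the gene of the enzyme that cuts endothelin precursors, was lower in knockout than in wild-type sham hearts by 0.37 ± 0.06 on the log2 scale, at 94.1 to 109.5 CPM against 127 to 137 CPM (adjusted p 0.0203). That call was kept with 8 of the 14 libraries left out in turn and lost without wild-type sham 2, 3 or 4 or knockout sham 1, 2 or 3.

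In the list of catecholamine synthesis, uptake and breakdown, the monoamine oxidase B gene Maob fell in both genotypes. It fell to 54.6 to 70.4 CPM in knockout TAC hearts, against 77.9 to 89.4 CPM in knockout sham hearts, and to 43.5 and 47.3 CPM in wild-type TAC hearts, against 74.8 to 83.2 CPM in wild-type sham hearts. Every TAC library lay below every sham library of its genotype. The fall was 0.47 ± 0.08 on the log2 scale in the knockout (adjusted p 0.00341) and 0.79 ± 0.11 in wild type (adjusted p 0.000217), and the wild-type value was -0.73 without the library labelled wild-type TAC 1 (adjusted p 0.0116). In the knockout the call was lost with the clock score in the model, at -0.35 with an adjusted p of 0.0621, and with 10-week libraries alone, at -0.42 with an adjusted p of 0.106. Slc22a3, the gene of a transporter that takes up catecholamines outside neurons, fell in wild type by 0.86 ± 0.16 (adjusted p 0.00283), and the value was -0.72 with an adjusted p of 0.0777 without the library labelled wild-type TAC 1.

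Among the 11 tested genes of the other renin-angiotensin list, Mme and Nr3c2 fell in both genotypes. Mme encodes neprilysin, a peptidase that cuts angiotensins, natriuretic peptides and endothelins. It was at 10.2 to 13.1 CPM in knockout TAC and 16.6 to 18.2 CPM in knockout sham hearts, and at 8.21 and 8.67 CPM in wild-type TAC and 14.6 to 17.5 CPM in wild-type sham hearts. No TAC library reached a sham library of its genotype. Its log2 fold change was -0.61 ± 0.10 in the knockout (adjusted p 0.00197) and -0.95 ± 0.12 in wild type (adjusted p 0.000176), and both calls were kept with each library left out and with the clock score in the model. The wild-type value was -0.91 without the library labelled wild-type TAC 1 (adjusted p 0.00811). With 10-week libraries alone the knockout value was -0.63 and its call was lost (adjusted p 0.0685). Nr3c2, the mineralocorticoid receptor gene, had log2 fold changes of -0.41 ± 0.12 in the knockout (adjusted p 0.0405) and -0.60 ± 0.16 in wild type (adjusted p 0.0197). Its wild-type call was lost without either TAC library of that genotype (-0.56 and adjusted p 0.178 without the library labelled wild-type TAC 1). Its knockout call was lost without wild-type sham 3, knockout sham 1, 2 or 3, or knockout TAC 1, 3 or 4. Ctsd, the gene of the protease cathepsin D, rose in wild type by 0.30 ± 0.07 (adjusted p 0.0135), and the value was 0.25 with an adjusted p of 0.172 without the library labelled wild-type TAC 1. Ren1, Agtr1b, Agtr2 and Ctsg had too few counts to be tested.

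Downstream of the receptors, 4 of the 22 genes of the Gs and Gi arm passed after TAC in the knockout and 6 in wild type. Over all genes tested, 13.0% passed in the knockout and 12.2% in wild type. Adcy7, the gene of an adenylyl cyclase, was at 31.3, 29.9, 27.3 and 38.7 CPM in knockout TAC hearts and at 18.3, 19.2, 23.0 and 22.7 CPM in knockout sham hearts. Wild-type hearts had 73.4 and 65.6 CPM after TAC, against 19.7, 23.0, 22.6 and 29.4 CPM after sham surgery. Both wild-type TAC libraries lay far above the other 12, and the knockout TAC libraries overlapped no knockout sham library. Adcy7 rose by 0.61 ± 0.13 on the log2 scale in the knockout (adjusted p 0.00859) and by 1.55 ± 0.15 in wild type (adjusted p 1.01e-05), where it was 1.46 without the library labelled wild-type TAC 1 (adjusted p 0.00041). The TAC libraries of the genotypes did not overlap either. After TAC it was lower in knockout than in wild-type hearts by 1.13 ± 0.15 (adjusted p 0.00105), and the value without the library labelled wild-type TAC 1 was -1.05 (adjusted p 0.0269). The interaction was -0.94 ± 0.20, with an unadjusted p of 0.000247 and an adjusted p of 0.225, and it was -0.85 without the library labelled wild-type TAC 1 (adjusted p 0.686). With the clock score in the model the knockout TAC call was lost, at 0.45 with an adjusted p of 0.147.

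Pde4d and Pde3a, phosphodiesterase genes of this arm whose enzymes break down cyclic AMP, fell in both genotypes. Pde4d had log2 fold changes of -0.59 ± 0.10 in the knockout (adjusted p 0.00332) and -0.79 ± 0.13 in wild type (adjusted p 0.00117), and Pde3a of -0.31 ± 0.08 (adjusted p 0.0246) and -0.37 ± 0.10 (adjusted p 0.0275). In wild type, Pde4d was at -0.75 and Pde3a at -0.32 without the library labelled wild-type TAC 1 (adjusted p 0.033 and 0.241). Pde3a was not among the genes named by rule and was chosen after its values were seen. Pde4a fell in wild type by 0.63 ± 0.15 (adjusted p 0.0121), at -0.46 and an adjusted p of 0.218 without the library labelled wild-type TAC 1. Gnai2, the gene of an inhibitory G protein, rose in the knockout by 0.29 ± 0.06 (adjusted p 0.0099). Akap6, an anchor of protein kinase A in heart muscle, was higher in knockout than in wild-type sham hearts by 0.32 ± 0.07 (adjusted p 0.0429), a call kept, among the 14 libraries left out in turn, only without wild-type sham 1 or either wild-type TAC library. It was also kept with the clock score in the model (adjusted p 0.0462) and by DESeq2 (adjusted p 0.00233). The Akap6 call was lost on coding counts (adjusted p 0.141) and with 10-week libraries alone (adjusted p 0.349). It was also lost without both knockout libraries that were apart by clock score (adjusted p 0.0633). In the Gq arm, 1 of 18 genes passed in each TAC comparison, where 13.0% (knockout) and 12.2% (wild type) of all genes did. Prkcd, a protein kinase C gene, rose in wild type by 0.55 ± 0.17 (adjusted p 0.0418), a call kept with 5 of the 14 libraries left out in turn, and the value was 0.63 with an adjusted p of 0.134 without the library labelled wild-type TAC 1. Itpr1, the gene of a calcium channel opened by inositol trisphosphate, fell in the knockout by 0.24 ± 0.07 (adjusted p 0.0423), a call kept with 6 of 14.

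Among 13 genes that switch these receptors off, Grk5 rose and Rgs2 fell in both genotypes. Grk5 encodes a kinase that phosphorylates active receptors. It was at 49.7, 52.3, 65.1 and 53.1 CPM in knockout TAC hearts and at 37.6, 38.5, 31.4 and 43.8 CPM in knockout sham hearts. Wild-type hearts had 77.7 and 60.8 CPM after TAC, against 33.8, 46.8, 41.2 and 39.3 CPM after sham surgery. No TAC library overlapped a sham library of its genotype. Grk5 rose by 0.54 ± 0.12 in the knockout (adjusted p 0.0115) and by 0.78 ± 0.14 in wild type (adjusted p 0.00238). Without the library labelled wild-type TAC 1 the wild-type value was 0.59, with an adjusted p of 0.0874.

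Rgs2 encodes a protein that speeds the switching off of Gq. It was at 17.0, 28.7, 45.8 and 28.3 CPM in knockout TAC hearts and at 65.7, 74.2, 39.5 and 48.4 CPM in knockout sham hearts. Wild-type hearts had 21.9 and 24.8 CPM after TAC, against 53.6, 46.4, 72.0 and 55.1 CPM after sham surgery. Knockout TAC 3 overlapped the sham range, and the other TAC libraries did not. Rgs2 fell by 0.91 ± 0.24 in the knockout (adjusted p 0.0238) and by 1.28 ± 0.31 in wild type (adjusted p 0.0137). The wild-type value was -1.19 with an adjusted p of 0.156 without the library labelled wild-type TAC 1, and the knockout call was lost without knockout sham 1 or 2 or knockout TAC 1, 2 or 4. With the clock score in the model neither Rgs2 nor Grk5 passed in either genotype. Grk5 was then at 0.54 in the knockout and 0.78 in wild type (adjusted p 0.0827 and 0.0746), as without the score, and Rgs2 at -0.62 and -0.79 (adjusted p 0.221 and 0.351). Among the TAC calls described here of pathway genes named by rule, those of Mme and Edn3 in both genotypes and of Maob and Adcy7 in wild type were kept with that score, and the others were lost. With 10-week libraries alone, none of the knockout TAC calls described here of these genes was kept. Grk3 was higher in knockout than in wild-type sham hearts by 0.56 ± 0.11 (adjusted p 0.0333), a call lost without wild-type sham 2 or 3 or any of the 4 knockout sham libraries. Arrb1, the gene of an arrestin, rose in wild type by 0.40 ± 0.12 (adjusted p 0.0399), a call kept with 7 of the 14 libraries left out in turn, and the value was 0.33 with an adjusted p of 0.301 without the library labelled wild-type TAC 1.

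**Figure D4:**
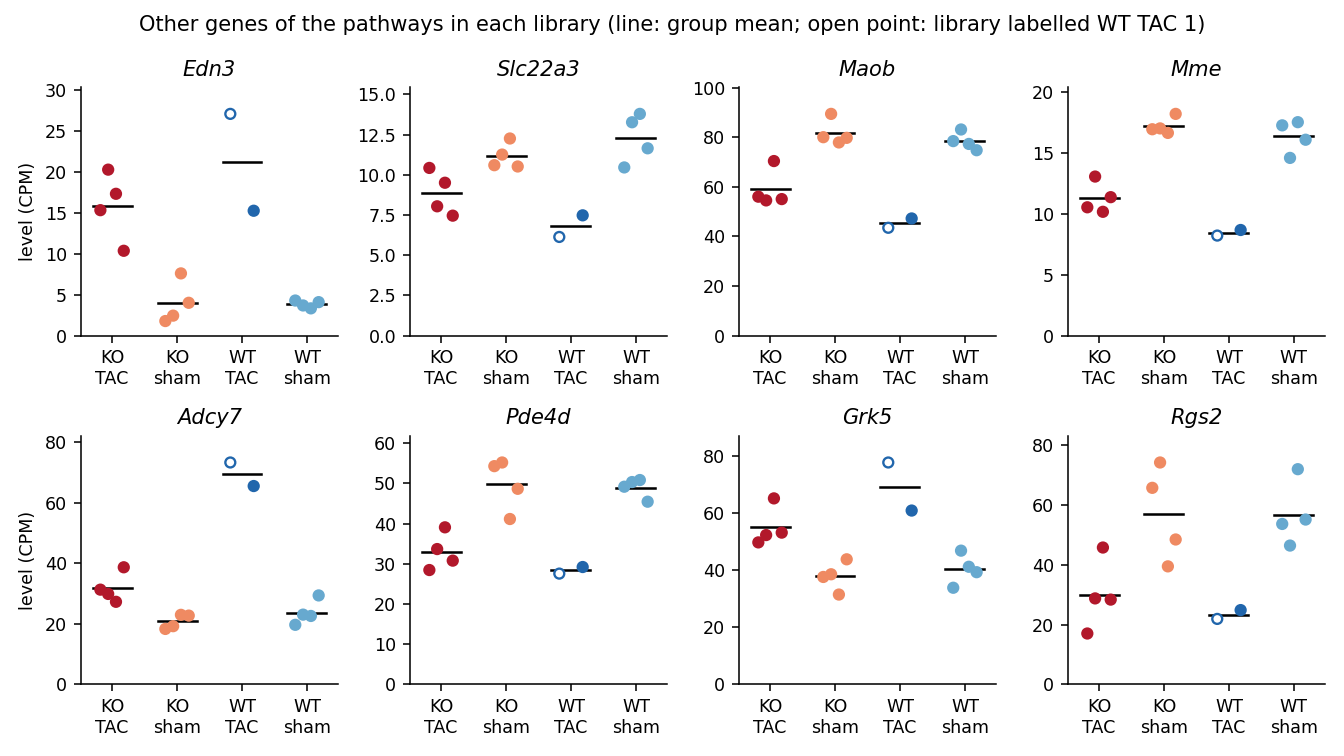
Level of 8 other genes of these pathways in CPM (vertical axis, from 0) in every library, by group; points are libraries, lines group means, and the open point is the library labelled wild-type TAC 1. Edn3, Adcy7 and Grk5 were above the sham libraries of their genotype in every TAC library, and Slc22a3, Maob, Mme and Pde4d were below them. The genes drawn had passed in these same comparisons, which favours such separation, and its share over all genes is not given here.

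**Figure D5:**
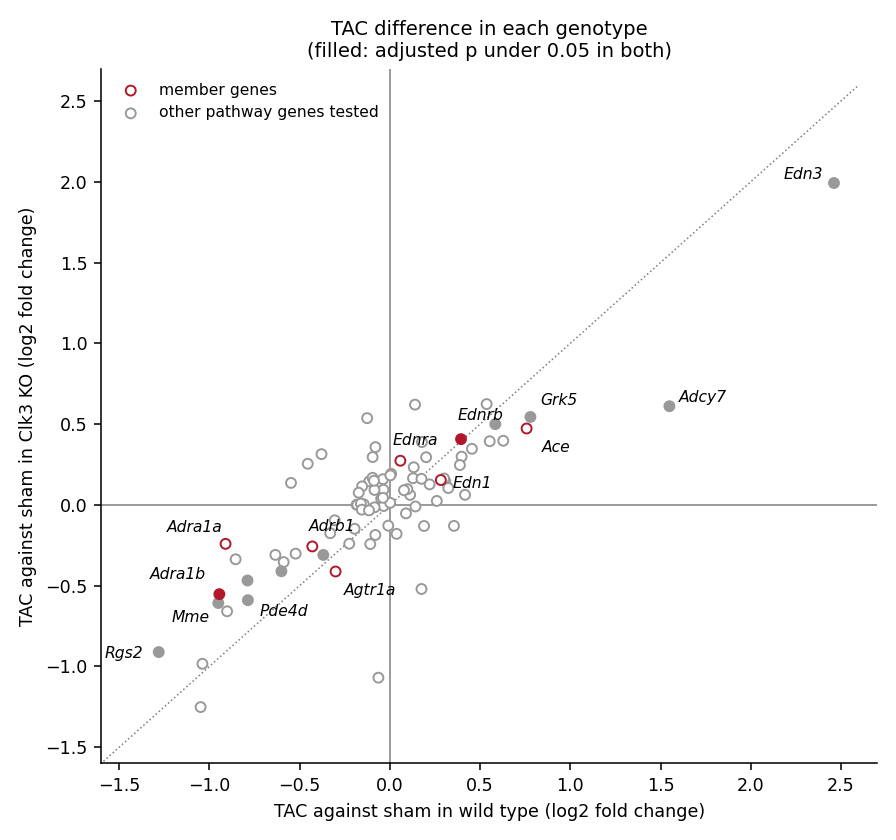
Log2 fold change after TAC in wild type (horizontal axis) and in the knockout (vertical axis) for the 8 member genes and 79 other tested pathway genes, each comparison with its own libraries; filled points had an adjusted p under 0.05 in both, and the dotted line marks equal values. Edn3 lay farthest out at 2.46 and 1.99, and Adra1a lay above the line at -0.91 and -0.24.

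The labelled tissue was checked against marker genes, and no marker of the 8 lists was at 0 in every library. In whole tissue, fewer cells of a type and less RNA per cell cannot be told apart. The summed level of 8 cardiomyocyte markers was 31863 to 40997 CPM in knockout TAC and 36089 to 39423 CPM in knockout sham hearts, and 31462 to 36265 CPM in wild-type TAC and 33807 to 38685 CPM in wild-type sham hearts, and of its genes Ryr2 fell in both genotypes and Actn2 rose in the knockout. Of 8 endothelial markers, the cells in which Ace, Ednrb and Edn1 are chiefly known, none passed in wild type and Pecam1 rose in the knockout. Their sum was 1875 to 2370 CPM in knockout TAC and 1738 to 2090 CPM in knockout sham hearts, and 2244 and 2247 CPM in wild-type TAC and 1928 to 2386 CPM in wild-type sham hearts. No marker of smooth muscle cells and pericytes passed, and 1, Kcnj8, was lower past the threshold in wild type without the library labelled wild-type TAC 1. Of 8 macrophage markers, 4 passed after TAC in the knockout and 3 in wild type, all higher, where 13.0% and 12.2% of all genes passed. The sum of the 8 was 227 to 279 CPM in knockout TAC and 160 to 218 CPM in knockout sham hearts. In wild type the sum was 261 and 324 CPM after TAC and 206 to 247 CPM after sham surgery. Cd163, another of the 8, did not pass and leaned lower. It was at 21.1 to 30.8 CPM in knockout TAC and 25.0 to 34.3 CPM in knockout sham hearts. In wild type Cd163 was at 23.7 and 27.3 CPM after TAC, against 26.1 to 40.1 CPM after sham surgery. Of 8 fibroblast markers, Col1a1 rose in both genotypes and Lum in wild type, and the sum was 2192 to 2507 CPM in knockout TAC and 1901 to 2264 CPM in knockout sham hearts, and 2587 and 2884 CPM in wild-type TAC and 2047 to 2749 CPM in wild-type sham hearts. Of the Schwann cell markers, Sox10 fell in wild type, and the sum over the list was 19.9 to 28.1 CPM in knockout TAC and 27.9 to 34.2 CPM in knockout sham hearts, and 23.1 and 31.3 CPM in wild-type TAC and 31.2 to 39.5 CPM in wild-type sham hearts. No marker of mast cells or lymphocytes passed in either TAC comparison. Without the library labelled wild-type TAC 1, Ryr2, Lum and Sox10 did not pass in wild type and 1 macrophage marker, Fcgr1, did, while Col1a1 still passed in both genotypes. The part of these cell types in the results was not tested.

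Each member's nearest genes by pattern, the 3 of highest Pearson correlation of log2 CPM over the 14 libraries among 11018 genes of at least 5 CPM on average, are given as a description. Adrb1 was nearest to Tgfbr3 (r = 0.911), Osbpl2 and Emilin2. Adra1a was nearest to Map3k5 (r = 0.949), Zfyve21 and Klf15, and Adra1b to Acot1 (r = 0.949), Sorcs2 and Slc25a42. Agtr1a was nearest to Abhd18 (r = 0.910), Casd1 and Asxl2. Ace had the highest value of all, 0.962 with Fscn1, followed by Kctd17 and the macrophage marker Csf1r (r = 0.946). Ednra was nearest to Sphk2 (r = 0.878), Nacc2 and Txlna, and Edn1 to Pmm1 (r = 0.862), Dpp7 and Smox. Ednrb was nearest to Pip4k2a (r = 0.950), Grk5 (r = 0.946) and Tuba1c. The 14 libraries share their groups and the difference in clock score, so genes that move with TAC correlate through it.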

How the data were processed

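The authors deposited, for every gene, the whole number of reads (counts), with coding, untranslated and ambiguous parts in separate columns, per the file headers. Named in the submitters' processing notes are STAR 2.4.2a, Picard 2.10.3 and bcl2fastq 2.17.1.14 and the builds mm10 and GRCm38. Per the labels' protocols the libraries were strand-specific and amplified by PCR. The counter, its annotation and its strand setting are not stated in those sources. Counts by the authors were used as deposited. Symbols and positions came from GENCODE M21. Reads in no feature (15.3% ± 2.42, SD, n = 14) and ambiguous reads were left out.

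The filter filterByExpr (minimum count 10) kept 15651 genes for testing and removed 36261. After TMM scaling, the quasi-likelihood test of edgeR 4.0.16 in R 4.3.3 was applied in 1 fit of all 14 libraries with 1 coefficient per group (common biological coefficient of variation 11.8%). P-values were adjusted by the Benjamini-Hochberg method over all 15651 genes and called under 0.05. A standard error is the log2 fold change divided by the root of its F value. The code was tested on simulated data. Libraries of the same group differed by more than sampling noise in every pair (lowest chi-square per degree of freedom 3.21).

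The members and the gene lists were chosen with earlier results of these data known. Named are the 8 members, Clk3, and from each pathway list up to 5 genes past the threshold by smallest p, or the gene of smallest p where none passed, and for each member the 3 genes of highest correlation (prior count 2). Some genes of these lists are not reported here. Alternatives were other scaling factors, no filter, coding counts, DESeq2 1.42.0, a clock score covariate, 10-week libraries, both groups of a comparison alone and each library left out. Another, which leaves out knockout sham 4 and knockout TAC 3, was chosen after seeing the data.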

Additional observations from a re-analysis of the deposited data

Results flagged for a closer look

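Of 84 groups of 4 libraries examined, 4 held a library far from the other 3, and chance flags about 1 in 20 such groups. Adra1a was at 28.9 CPM in knockout TAC 2, against 24.3 to 25.0 CPM in the other knockout TAC libraries. The same library had the highest ratio of Adra1a to Adra1b per kilobase, 0.535, against 0.453 to 0.461 in the others. The share of Adrb1 counts in untranslated parts was 60.1% in knockout TAC 4, against 65.4% to 66.2%. The summed Schwann cell markers were at 34.2 CPM in knockout sham 3, against 27.9 to 28.2 CPM.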

How the results depend on the processing

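Each comparison was recomputed under 22 alternatives (21 for the interaction). Over the alternatives together, Adrb1, Adra1a, Adra1b, Ace and Ednrb kept their direction after TAC in both genotypes. RLE factors left every count within 1.5 times of the value reported. For TAC in the knockout, all-gene counts are not given here without a filter, by DESeq2 or without both knockout libraries apart by clock score. The member counts under those alternatives therefore have no background beside them. Members past the threshold after TAC in wild type numbered 3 on coding counts, 0 with the clock score, 2 with 10-week libraries, 2 with both groups alone and 0 to 5 with each library left out, and all genes 1169, 340, 938, 1074 and 512 to 2224. In the knockout, members numbered 4 without a filter, 1 on coding counts, 0 with the clock score, 0 with 10-week libraries, 4 without both knockout libraries that were apart by clock score, 4 by DESeq2 and 0 to 3 with each library left out, and all genes 1005 on coding counts, 246 with the clock score, 15 with 10-week libraries and 797 to 2306 with each library left out. Between genotypes in sham hearts, 1 member (Ace) passed without a filter, and all genes numbered 387 without a filter, 92 on coding counts, 247 with the clock score, 0 with 10-week libraries (edgeR; 139 in the fit reported), 582 by DESeq2 and 8 to 531 with each library left out. After TAC, members numbered 2 without a filter and by DESeq2, 0 on coding counts, with the clock score, with 10-week libraries, with both groups alone and without both knockout libraries, and 0 to 2 with each library left out. All genes there numbered 525 without a filter, 145 on coding counts, 120 with 10-week libraries, 60 with both groups alone, 149 without both knockout libraries, 467 by DESeq2 and 46 to 359 with each library left out. In the interaction they numbered 66 without a filter, 0 on coding counts and with 10-week libraries, 1 with the clock score and without both knockout libraries, 37 by DESeq2 and 0 to 32 with each library left out.

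Directions turned for differences that did not pass. With the clock score, Agtr1a and Ednra after TAC in wild type were at 0.0394 and -0.0835 on the log2 scale, and Ednra was at -0.00604 with 10-week libraries and at -0.17 to 0.25 with each library left out. On coding counts, Edn1 was at -0.0687 after TAC in the knockout, and Edn1 and Ednra at 0.0753 and 0.00241 between genotypes in sham hearts. There, Ednra was at 0.13 with 10-week libraries, and leaving out each library gave -0.0184 to 0.20 for Adra1a, -0.19 to 0.0538 for Ednra and -0.13 to 0.00517 for Ednrb. Between genotypes after TAC, it gave -0.0646 to 0.12 for Adrb1, -0.0679 to 0.26 for Agtr1a, -0.00508 to 0.42 for Ednra and -0.20 to 0.0932 for Ednrb, and Adrb1 was at -0.0644 without both knockout libraries. In the interaction, it gave -0.27 to 0.0645 for Agtr1a, -0.58 to 0.0799 for Ace, -0.13 to 0.17 for Ednrb and -0.21 to 0.0156 for Edn1, Ednrb was at -0.0288 on coding counts and Edn1 at 0.0302 with 10-week libraries. The cause was not tested.

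Leaving out a wild-type TAC library leaves 1, which is assumed to vary like the other groups. The 10-week alternative has fewer libraries, 2 in each sham group. No paired analysis was possible because the replicate numbers follow only the order of deposit and pair no libraries.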
